A study of Mus musculus with 58 samples.

Results

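Slco1b2 encodes the main organic anion transporter of the mouse hepatocyte. Liver tumors low in it also had lower levels of many cytochrome P450, complement, uptake transporter and bile acid genes than tumors high in it. The tumors were chosen by the Slco1b2 value itself. Of 29 tumor arrays ranked on the log2 value of its probe set, the 10 with the highest and the 10 with the lowest value were compared with each other and with 29 arrays of normal liver. By the animal numbers in their titles, these 20 arrays of the 58 in the series are single tumors of 20 different mice. The 9 tumors between them are shown for context. Slco1b2 values are therefore a description and carry no test, whereas the other 22179 genes were not used in the ranking.

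All the mice, those that gave normal liver included, had received an adeno-associated virus (AAV) vector soon after birth, were sampled as adults, and had a mixed background of the strains FVB/NJ, C57BL/6 and 129/Sv. The study asked whether insertion of the vector into the genome contributed to hepatocellular carcinoma. Tumor and normal liver are the groups of the labels, and the high and low groups are ranges of a measured value, not tumor types named by the study. The labels give no vector dose, tumor size, stage or histology. Normal liver came from injected mice, some of which bore tumors, so no array stands for an uninjected liver. Some titles carry a genotype mark whose gene is not stated. The mark -/- stood on 2 of the 10 highest and 2 of the 10 lowest tumors, and +/- on 1 and 3. Among normal livers, -/- stood on 17, 20, 22 and 27, and +/- on 4, 7, 13, 15 and 26. The title of normal liver 4 also carried the word GFP, which that of tumor 4 of the same animal did not. Tumor 19 of the 10 highest had no mark, whereas normal liver 17 of the same animal was titled -/-. Normal livers 1, 3, 6, 10, 12, 16, 19, 23 and 25 were labelled female and the others male.

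The hepatocyte is recognised by a set of genes that it expresses at very high level, for plasma proteins, complement, bile acid synthesis, drug oxidation and the uptake of bile acids and other organic anions from sinusoidal blood. A small group of transcription factors, among them HNF4A, C/EBPα and the FOXA proteins, holds this program in place. Liver tumors are known to lose parts of this program to differing degrees while the albumin gene often stays active. Uptake transporters of the Slco1b family are used in the clinic to image liver lesions, because tumors that lose them take up less contrast agent.

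Before the comparisons, the arrays were checked against their labels over all genes but Slco1b2. Tumors 1, 20 and 24, all among the 10 highest, lay nearer to the mean of normal liver than to the mean of the other tumors. Normal livers 16, 26 and 27 lay nearer to the tumors. Normal liver 27 had a Slco1b2 value of 5.81 against 10.44 to 12.08 on the other 28 normal arrays. Tumor 9, which had the lowest Slco1b2 value of all, stood apart in a different way. Its mean level over 8 hepatocyte markers was 7.88 against 11.60 to 12.15 in the other 9 of the 10 lowest, and its mean over 8 markers of B and plasma cells was 11.70 against 6.81 to 7.41. Tumor 20 had a mean of 10.22 over 12 neutrophil markers, against 6.15 to 7.33 in the other 9 of the 10 highest. Normal liver 19, of the same animal as tumor 20, had a mean of 10.37 over these markers and was kept throughout. Xist went against the sex label on 7 arrays, of which 1 was among the 10 highest and 2 among the 10 lowest. Each comparison is given with these arrays and, where counts or calls moved, without the 6 arrays nearer to the other tissue, and without tumor 9 as well. These 7 arrays together are called the doubted arrays, a choice made after seeing the data. The 6 were picked by their distance to the tissue means. Leaving them out therefore widens differences between tumors and normal liver by the choice itself. Nothing in the labels says how much normal liver or how many blood cells a tumor piece held. In whole tissue, fewer cells of a type and less RNA per cell cannot be told apart.

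Slco1b2 fell in steps across the tumors and was near its ceiling in all but 1 normal liver. The 10 highest tumors, in falling order, were tumors 24 at 12.09, 1 at 12.05, 25 at 11.22, 27 at 11.14, 19 at 11.04, 20 at 10.14, 14 at 9.31, 21 at 9.17, 7 at 9.16 and 8 at 8.85. The 10 lowest were tumors 28 at 6.73, 11 at 6.59, 4 at 6.43, 3 at 6.26, 2 at 6.05, 29 at 5.97, 16 at 5.45, 23 at 5.29, 13 at 5.21 and 9 at 5.06. The last tumor inside the high group stood at 8.85 and the first outside at 8.48, and for the low group these values were 6.73 and 6.84. Means were 10.42 ± 1.24 (SD, n = 10) in the high group, 5.90 ± 0.61 (SD, n = 10) in the low group and 11.46 ± 1.16 (SD, n = 29) in normal liver, or 11.66 ± 0.41 (SD, n = 28) without normal liver 27. The means of the high and the low group were 22.8-fold apart by choice of the tumors.

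**Figure D1:**
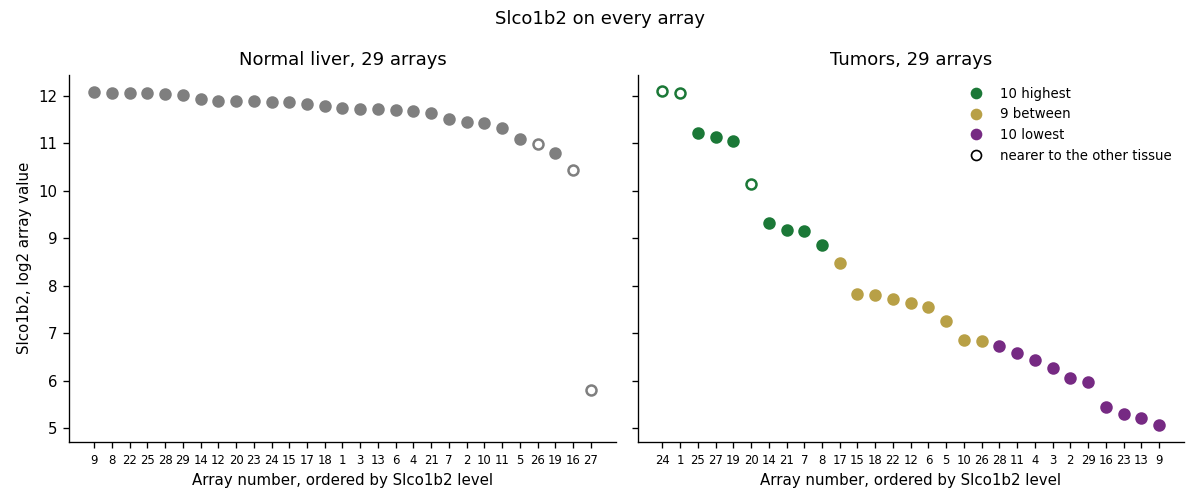
Slco1b2 log2 value of each array, in falling order, for normal liver (left) and tumors (right), with the 10 highest, 9 intermediate and 10 lowest tumors in different colours and open circles for the 6 arrays nearer to the other tissue. Tumors fall from 12.09 to 5.06, whereas 28 of 29 normal livers lie at or above 10.44.

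Normal livers of the same mice did not show this split. Normal liver of the same animal was measured for 6 of the 10 highest and 7 of the 10 lowest tumors. Slco1b2 there was 11.64 ± 0.46 (SD, n = 6; lowest 10.79, median 11.78, highest 12.06) beside high tumors and 11.49 ± 0.52 (SD, n = 7; lowest 10.44, median 11.67, highest 12.08) beside low ones. These ranges overlapped almost fully, and the difference of 0.15 was within the spread (p = 0.582, two-sided exact permutation test). Sex labels were 4 female and 6 male in the high group and 3 female, 6 male and 1 without a label in the low group (Fisher's exact test of female against male, two-sided p = 1). Xist, the transcript of the inactive X chromosome, was above 9 on 5 of the 10 high and 2 of the 10 low tumor arrays.

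Across the other genes, tumors that kept Slco1b2 kept a broad set of hepatocyte genes with it. By limma with Benjamini-Hochberg adjustment, 254 of 22179 genes (1.15%) had an adjusted p under 0.05 and values at least 1 log2 unit, or 2-fold, higher in the 10 highest than in the 10 lowest tumors. Only 18 genes (0.0812%) were lower by as much. At any size of difference 579 genes (2.61%) were higher and 259 (1.17%) lower, which with quantile-normalised arrays became 648 and 576. Since the groups were cut from measured values, such a call says that a gene varied with Slco1b2 between tumors. All 254 higher genes were also lower than normal liver in the 10 lowest tumors, with a median of -1.75, and 16 of them differed from normal liver in the 10 highest, with a median of -0.30. Both comparisons share the 10 lowest arrays, so this describes the same values and is no separate result. Without the arrays nearer to the other tissue the counts of 2-fold differences were 233 higher and 11 lower, and without tumor 9 in addition 171 and 24. The values of the 2 groups did not overlap for 23 of the 272 genes that differed 2-fold, and for 30 of all 22179 genes.

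The relatives of Slco1b2 did not move as a family. Of 15 organic anion transporters of the Slco family on the array, only Slco2b1, which imports steroid sulfates and other anions, was higher beside Slco1b2 itself. Slco2b1 ranged from 9.18 to 10.47 (median 9.84) in the 10 highest tumors, from 7.62 to 9.22 (median 8.51) in the 10 lowest and from 8.14 to 10.52 (median 10.19) in normal liver. The tumor groups barely touched, and the difference was 1.26 ± 0.22 (SE, adjusted p = 0.000116). Slco1a6 went the other way by -0.63 (adjusted p = 0.0279), from a low level. Slco1a1, a transporter of male liver, had a median of 7.31 (6.09 to 11.40) in the high group and 5.81 (5.58 to 6.38) in the low group, a difference of 1.91 ± 0.81 (SE) that did not pass (adjusted p = 0.213). The other 11 members differed by between -0.05 and 0.55 and did not pass.

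Slc10a1, the sodium-dependent importer of bile acids, had a median of 11.95 (11.02 to 12.68) in the 10 highest tumors, 9.002 (7.10 to 11.87) in the 10 lowest and 12.55 (11.53 to 12.91) in normal liver. It was 5.83-fold higher in the high group (log2 difference 2.54 ± 0.34, SE, adjusted p = 1.96e-06), although 2 low tumors reached the range of the high ones. In the list of uptake transporters, 7 of 13 measured members were higher and 0 lower, with a median difference of 1.39 against -0.01 over all genes, and 6 of 13 were higher without the doubted arrays. Of 15 exporters, 3 were higher and 0 lower. They included Abcb11, the bile salt export pump of the canaliculus, with a difference of 1.72 ± 0.37 (SE, adjusted p = 0.00224).

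**Figure D2:**
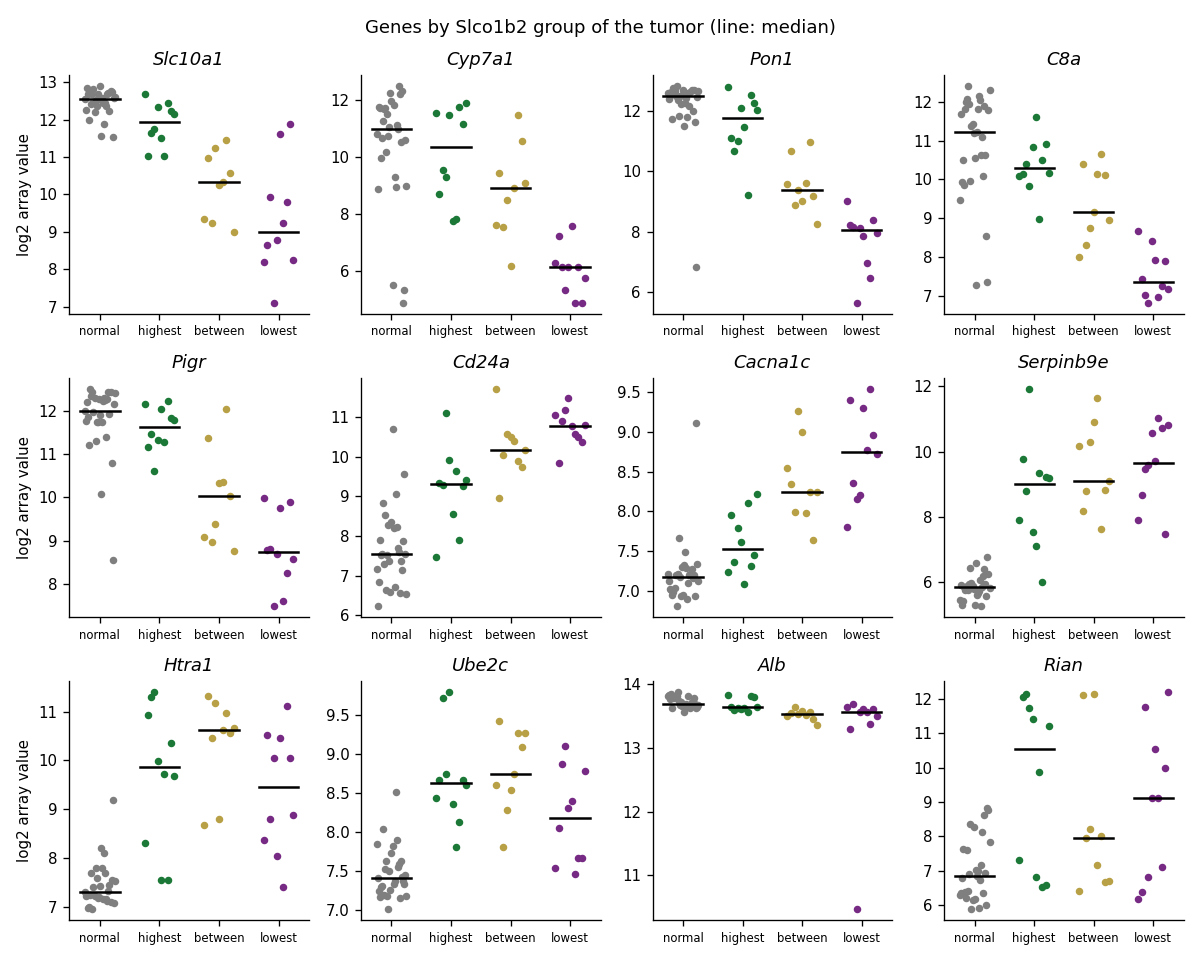
Log2 values of 12 genes in normal liver (29 arrays) and in the 10 highest, 9 intermediate and 10 lowest tumors by Slco1b2, each point an array and each line a median. The first 5 genes step down with Slco1b2, Cd24a and Cacna1c step up, Serpinb9e, Htra1 and Ube2c have medians above normal liver in every tumor group, Alb is level but for tumor 9, and Rian splits each tumor group.

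Of 15 bile acid synthesis genes, 9 were higher and 0 lower, with a median difference of 1.04, or 0.61 without tumor 9. Cyp7a1, the rate-limiting enzyme, ranged from 7.75 to 11.89 (median 10.35) in the 10 highest tumors and from 4.90 to 7.59 (median 6.14) in the 10 lowest, with no overlap. The difference was 3.97 ± 0.76 (SE, adjusted p = 0.000545), or 15.6-fold. In normal liver Cyp7a1 reached from 4.90 to 12.49, so low values also occurred there. Cyp2c70, which makes muricholic acids, differed by 2.21 ± 0.38 (SE, adjusted p = 9.93e-05) and Baat, which conjugates bile acids with taurine, by 1.26 ± 0.25 (SE, adjusted p = 0.000969).

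Among cytochrome P450 genes, which oxidise drugs, steroids and fatty acids, 19 of 42 were higher and 0 lower, with a median difference of 1.39. Cyp2e1, the ethanol-oxidising enzyme, had a median of 12.72 (10.92 to 13.26) in the high group, 8.91 (7.39 to 11.35) in the low group and 13.21 (9.08 to 13.42) in normal liver. Cyp1a2 had medians of 11.12 (9.9996 to 12.59), 7.80 (6.03 to 9.12) and 11.998 (7.47 to 12.49) in the same order. The tumor groups did not overlap for Cyp1a2 and overlapped at their edges for Cyp2e1, and the differences were 9.63-fold (adjusted p = 5.35e-06) and 11.3-fold (adjusted p = 3.47e-07). Among the named genes the largest difference was that of Ces3a, a carboxylesterase, at 4.61 ± 0.80 (SE, adjusted p = 0.000116). Mup3, a major urinary protein, differed by 4.36 ± 0.89 (SE, adjusted p = 0.00123). Pon1, the paraoxonase carried on high-density lipoprotein, did not overlap between the groups, with 9.23 to 12.80 (median 11.76) in the high group against 5.65 to 9.03 (median 8.04) in the low group. Its difference was 3.83 ± 0.45 (SE, adjusted p = 1.77e-07) and was 3.26 without the doubted arrays. Of 30 conjugation enzymes, 5 were higher.

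Proteins that hepatocytes secrete into blood were higher to differing degrees. Of 17 complement genes, 14 were higher in the 10 highest tumors (median difference 1.15), and 12 were without the doubted arrays. C8a, a subunit of the membrane attack complex, ranged from 8.98 to 11.60 (median 10.28) in the high group and from 6.82 to 8.67 (median 7.34) in the low group. C9, which forms the pore, ranged from 10.23 to 11.48 (median 11.03) and from 5.87 to 9.71 (median 7.92). Neither gene overlapped between the groups, and their differences were 2.71 ± 0.48 (SE, adjusted p = 0.000174) and 2.84 ± 0.64 (SE, adjusted p = 0.00406). Of 38 other plasma proteins, 10 were higher and 0 lower, with a median difference of 0.84 that was 0.43 without tumor 9 and 0.32 without the doubted arrays. F13b, the carrier subunit of clotting factor XIII, had medians of 10.10 and 7.98 and a difference of 1.87 ± 0.30 (SE, adjusted p = 3.31e-05). Serpina1c, an α1-antitrypsin gene of a near-identical cluster in which probes can be shared, differed by 2.41 (adjusted p = 3.4e-05). Alb, the albumin gene, had medians of 13.64 (13.57 to 13.83) in the high group and 13.57 (10.47 to 13.69) in the low group, the low end being tumor 9. The difference of 0.45 ± 0.18 (SE) did not pass (adjusted p = 0.183), and it was 0.11 without the doubted arrays.

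Of 20 measured hepatocyte transcription factors, 4 were higher in the 10 highest tumors, and 2 were without the doubted arrays, where 3.1% of all genes were higher and 1.34% lower. Nr1i3, the constitutive androstane receptor that induces P450 genes, had medians of 9.82 (8.01 to 11.56) and 7.98 (6.80 to 8.65), a difference of 1.92 ± 0.41 (SE, adjusted p = 0.00233). Cebpa differed by 0.77 ± 0.22 (SE, adjusted p = 0.0326), a call lost without any of tumors 1, 9, 21, 24, 25 or 27, and Foxa1 by 0.78 ± 0.20 (SE, adjusted p = 0.0149), with 0.605 and an adjusted p of 0.0526 without the doubted arrays. Hnf4a had medians of 11.02 (10.19 to 11.25) and 10.88 (7.53 to 11.19). Its difference of 0.44 had a 95% interval of -0.01 to 0.90 and did not pass (adjusted p = 0.354). Foxa2 differed by 0.09 (adjusted p = 0.875).

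Hepatocytes near the central vein and near the portal tract divide the work of the liver between them. Of 23 pericentral genes, 14 were higher in the 10 highest tumors (median 0.99), several of them the P450 genes above. Gulo, which makes vitamin C in mice, had medians of 11.08 and 8.49 and differed by 2.59 ± 0.38 (SE, adjusted p = 1.02e-05). Of 18 periportal genes, 2 were higher, Otc of the urea cycle at 2.62 ± 0.48 (SE, adjusted p = 0.000274) and Pigr, which carries antibodies into bile, at 2.74 ± 0.36 (SE, adjusted p = 1.93e-06). Pigr ranged from 10.60 to 12.21 in the high group and from 7.49 to 9.99 in the low group, without overlap. Cyp2f2, a defining periportal gene, had medians of 12.35 and 11.03 and did not pass (adjusted p = 0.179). Against normal liver the median over the periportal genes was 0.40 in the high and 0.04 in the low group, but without tumor 9 these medians were 0.41 and 0.44. Between the tumor groups the periportal median of 0.47 was then 0.02. That over the pericentral genes was -0.58 and -1.57 against normal liver, and -0.58 and -1.56 without tumor 9.

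Of 17 cholesterol synthesis genes 7 were higher, and 3 without the doubted arrays, among them Sc5d at 1.08 ± 0.25 (SE, adjusted p = 0.00462). Of 18 fatty acid synthesis genes 3 were higher, with Thrsp, a regulator of lipogenesis, at 1.84 ± 0.42 (SE, adjusted p = 0.00421). Of 19 apolipoprotein and lipoprotein genes 6 were higher, of 21 genes of urea cycle and amino acid breakdown 2, and of 18 fatty acid oxidation genes 3. Without tumor 9 the last 2 counts were 1 and 0. Slc2a2, the hepatocyte glucose transporter, was higher by 1.94 ± 0.42 (SE, adjusted p = 0.00233) and Pkm, the pyruvate kinase of most non-liver tissues, was lower by -0.80 ± 0.24 (SE, adjusted p = 0.0441). These were the only glycolysis genes of 19 to pass, and Pkm did not pass without the doubted arrays (-0.72, adjusted p = 0.0838).

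**Figure D3:**
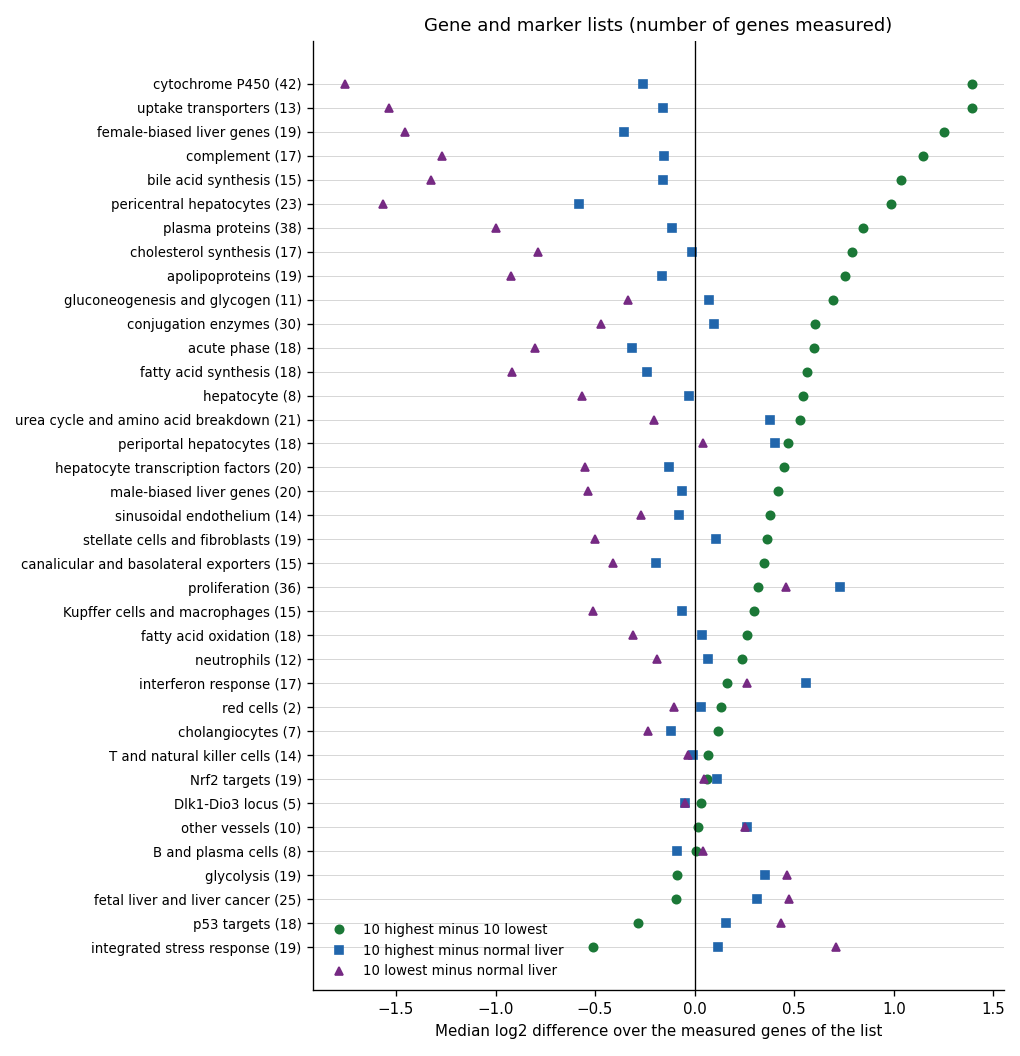
Median log2 difference over the measured genes of each list for the 3 comparisons, lists sorted by the difference between the 10 highest and the 10 lowest tumors. P450, uptake transporter, complement and bile acid lists lie at 1.04 to 1.39 for high minus low and near normal liver in the high group, whereas proliferation lies above normal liver in both groups. Both comparisons with normal liver share the same 29 normal arrays.

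All 18 genes that were lower 2-fold in tumors that kept Slco1b2 were above normal liver in the 10 lowest, with a median of 1.92, and 7 of them differed from normal liver in the 10 highest. Here too the 10 lowest arrays are shared. Cacna1c, a subunit of the L-type calcium channel, ranged from 7.08 to 8.22 (median 7.53) in the 10 highest tumors, from 7.80 to 9.54 (median 8.75) in the 10 lowest and had a median of 7.17 in normal liver. The difference was -1.12 ± 0.20 (SE, adjusted p = 0.000176). Pmm1, a phosphomannomutase, and Fcamr, an Fc receptor for IgA and IgM, differed by -1.40 (adjusted p = 0.000748) and -1.18 (adjusted p = 0.000977). Btg2, an antiproliferative p53 target, had medians of 10.001 (8.39 to 10.90) and 11.31 (10.29 to 11.51) and differed by -1.37 (adjusted p = 0.0123). All 4 kept their calls without the doubted arrays. Cd24a, a surface protein of progenitor cells, had medians of 9.31 (7.47 to 11.10) and 10.78 (9.83 to 11.48) with overlapping ranges. Its difference of -1.55 (adjusted p = 0.0109) became -1.06 (adjusted p = 0.0599) without the doubted arrays. Muc13, a cell-surface mucin, differed by -1.86 (adjusted p = 0.0312), a call lost without any of tumors 1, 4, 11, 13, 16, 24 or 27.

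Of 19 targets of the integrated stress response, 3 were lower in the 10 highest tumors and 0 higher (median -0.51). There were 7 lower without tumor 9, 3 without the doubted arrays and 5 with quantile-normalised arrays. With all arrays they were Slc7a5, which imports large neutral amino acids, at -1.27 ± 0.29 (SE, adjusted p = 0.00481), Vldlr at -1.14 (adjusted p = 0.0431) and Atf4, the central factor of the response, at -0.41 (adjusted p = 0.0176). Slc7a5 had medians of 8.87 (8.34 to 10.01) in the high group, 10.44 (8.81 to 11.42) in the low group and 8.82 in normal liver. The Atf4 call was lost without tumor 1, and that of Vldlr without the 6 arrays nearer to the other tissue (adjusted p = 0.127). Without the 6 arrays nearer to the other tissue 1 member was lower, where 2.81% of all genes were higher and 0.798% lower. Afp, the fetal albumin used as a marker of liver cancer, had medians of 7.91 (6.91 to 10.58) and 9.37 (7.33 to 12.69), and its difference of -1.33 ± 0.45 (SE) did not pass (adjusted p = 0.0817). It passed without tumor 9, 19 or 21, at -1.58, -1.59 and -1.50.

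Some genes of other liver cells were also higher in tumors that kept Slco1b2. The Kupffer list holds 15 markers of Kupffer cells, the resident macrophages, and of macrophages in general. Of these, 5 were called higher and 0 lower. The median difference was 0.30, with 10 members above 0 and 5 below. Vsig4, a complement receptor of Kupffer cells, ranged from 8.14 to 11.43 (median 10.18) in the 10 highest tumors, from 5.39 to 9.62 (median 7.08) in the 10 lowest and from 8.72 to 12.38 (median 10.30) in normal liver. Clec4f, a lectin found on mouse Kupffer cells alone, had medians of 9.64, 7.61 and 10.31. Their differences were 2.94 ± 0.45 (SE, adjusted p = 1.7e-05) and 1.90 ± 0.28 (SE, adjusted p = 1.29e-05). Of 14 markers of sinusoidal endothelium, 5 were higher and 0 lower (median 0.38), with Clec4g, a lectin of these vessels, at 2.56 ± 0.35 (SE, adjusted p = 3.13e-06). Of 19 markers of stellate cells and fibroblasts, 6 were higher (median 0.36) and 0 without the doubted arrays, where the median was 0.61 and 10 instead of 9 had an unadjusted p under 0.05. The counts for Kupffer cells and sinusoidal endothelium were then 5 and 7. No marker of cholangiocytes, T cells, B cells, neutrophils or red cells passed by limma. Unadjusted p-values under 0.05 numbered 1 of 7, 1 of 14, 0 of 8, 0 of 12 and 0 of 2 in these lists. Without tumor 9, 1 of the 14 T and natural killer cell markers was higher in the high group and 7 had an unadjusted p under 0.05, with a median of 0.29 against 0.07 with all arrays. The median over the B and plasma cell markers was then 0.47, against 0.01.

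The group medians of the mean levels over the Kupffer and sinusoidal lists were higher in the 10 highest tumors, with overlapping ranges and no test of the means. The mean of the Kupffer list ranged from 8.26 to 9.77 (median 9.20) in the 10 highest tumors, from 8.01 to 9.18 (median 8.26) in the 10 lowest and from 8.05 to 10.65 (median 9.07) in normal liver. That of the sinusoidal list ranged from 8.90 to 10.13 (median 9.69), from 8.25 to 9.57 (median 8.97) and from 9.04 to 10.16 (median 9.56). The 8 hepatocyte markers without Slco1b2 stood at 11.95 to 12.33 in the high group and 11.60 to 12.15 in the low group, tumor 9 apart. In 8 of the 10 lowest tumors this mean lay inside the normal range of 11.69 to 12.30. Gene by gene, 6 of the 8 markers were nevertheless lower than normal in the 10 lowest tumors, with a median of -0.56, and without tumor 9 also 6, with a median of -0.20. Of the 8, 1 was called between the tumor groups, Apoa1 of high-density lipoprotein, higher by 0.90 ± 0.25 (SE, adjusted p = 0.0215) in the high group. The part of these other cells in the hepatocyte differences was not tested.

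**Figure D4:**
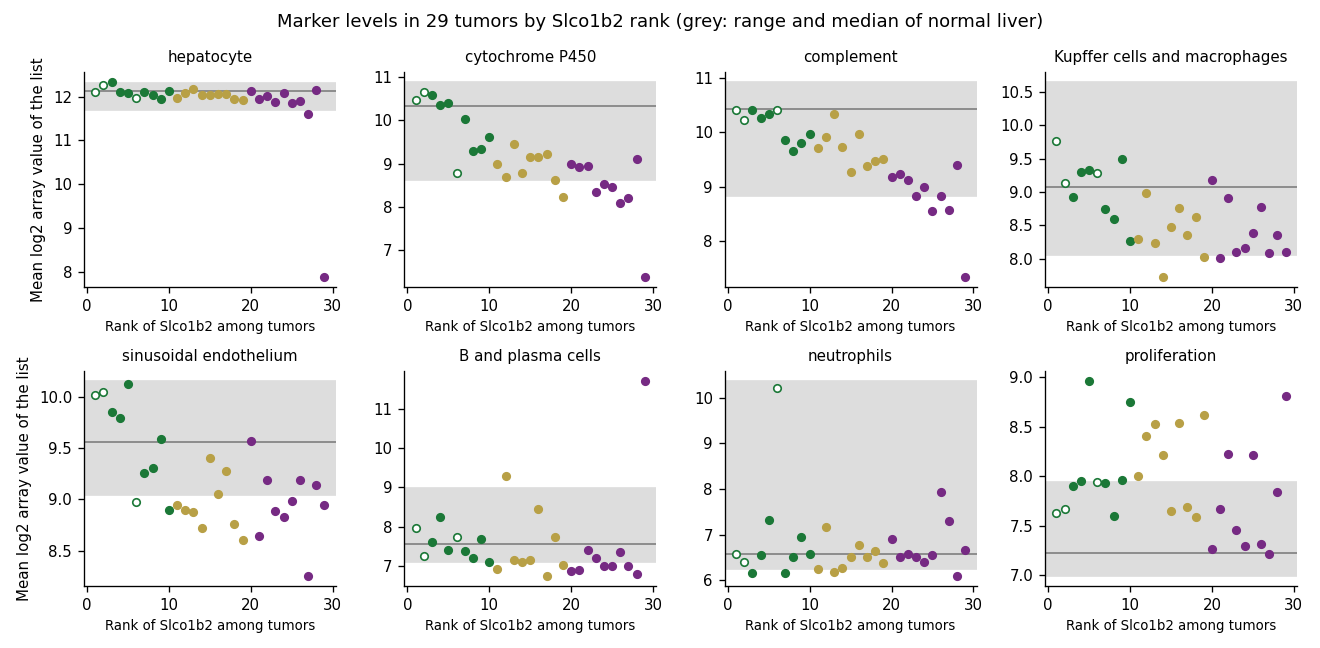
Mean log2 value of 8 gene lists in each of 29 tumors against the rank of Slco1b2 (colours as the groups, open circles for tumors 24, 1 and 20), with the range and median of 29 normal livers in grey. P450 and complement levels fall with rank. Hepatocyte markers lie at 11.95 to 12.33 in the high and 11.60 to 12.15 in the low group, except in tumor 9, the last tumor, which alone reaches 11.70 for B and plasma cells.

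Some of the same genes also followed Slco1b2 within normal liver. Over 29 normal livers 398 genes rose with Slco1b2 (1.79%) and 524 fell (2.36%). Among the 254 genes higher in the 10 highest tumors, 169 rose and 0 fell. Without the 2 normal livers of lowest Slco1b2, 105 of the 254 rose and 0 fell, beside 2.02% and 1.23% of all genes. Of the 18 lower genes, 12 fell with Slco1b2 in normal liver, and 1 did so without those 2 arrays. Cyp1a2 and Cyp2c50 changed by 1.86 and 2.47 log2 units per unit of Slco1b2 over the 27 remaining livers (adjusted p = 0.000655 and 0.000162). The lowest Slco1b2 among these 27 was in normal livers 19 and 26, at 10.79 and 10.98. Their means over the P450 list, 9.01 and 9.51, were also the lowest of the 27. Slopes without normal livers 19 and 26 were not tested.

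The second question was what still marks the 10 highest tumors as tumors. They differed from normal liver in 834 genes upwards (3.76%) and 241 downwards (1.09%), which became 861 and 105 with arrays centred on their median and 848 and 551 with quantile-normalised arrays. Of these, 135 genes were at least 2-fold higher (0.609%) and 11 at least 2-fold lower (0.0496%). Genes that vary with Slco1b2 are drawn towards normal liver here by the choice of the tumors, so the low number of lower genes is not a result about loss. The 10 lowest tumors, set against the same normal arrays, had 2852 genes higher (12.9%) and 2136 lower (9.63%), of which 293 (1.32%) and 448 (2.02%) were 2-fold. Of the 135 higher genes, 113 also differed from normal liver in the low group, with a median of 1.30 in the high and 1.52 in the low group. In the direct comparison 2 of them were higher and 3 lower in the high group, and for 45 the 95% interval of the difference lay within 1 log2 unit of 0.

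Without the 6 arrays nearer to the other tissue, and so with 7 high tumors and 26 normal livers, 3074 genes were higher than normal (13.9%) and 2470 lower (11.1%), of which 364 and 90 were 2-fold. Larger counts follow from that choice of arrays and are no separate result. Without tumor 9 as well, whose own group shares the fit, 15.9% were higher and 13.4% lower. Where only the 6 high tumors with normal liver of the same animal were used, 2 of them tumors 1 and 20, 0 genes passed with the animal as a replicate block by limma, while 2024 were higher and 936 lower at an unadjusted p under 0.05.

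Proliferation genes were higher in the 10 highest tumors as a group than in normal liver. Of 36 genes of the cell cycle, 34 were higher than in normal liver, with a median of 0.73. In the 10 lowest tumors 23 were higher, with a median of 0.46, and 12 without tumor 9, with a median of 0.33. Mki67, the marker used to count cycling cells, ranged from 8.62 to 10.50 (median 9.15) in the high group, from 7.36 to 10.89 (median 8.42) in the low group and from 7.37 to 9.62 (median 7.89) in normal liver. It was 2.37-fold higher in the high group than in normal liver (adjusted p = 0.00153). Ube2c, a ubiquitin-conjugating enzyme of mitotic exit, had medians of 8.63 (7.81 to 9.80), 8.18 and 7.41, and 6 of 10 high tumors lay above every normal liver. Its difference from normal liver was 1.20 ± 0.17 (SE, adjusted p = 7.27e-06). Cdkn3, a cell cycle phosphatase, differed by 1.08 ± 0.15 (SE, adjusted p = 7.27e-06). Between the tumor groups 0 of 36 genes passed by limma, with 9 higher and 0 lower at an unadjusted p under 0.05. Without the doubted arrays 7 were higher in the high group, with Ube2c at 0.77 (adjusted p = 0.0423). Tumor 9 had a mean of 8.81 over this list, the highest of its group. In the high group this mean was 8.96 in tumor 19, 8.75 in tumor 8, 7.96 in tumor 7 and 7.95 in tumor 27. The other high tumors lay at 7.60 to 7.94, beside 6.99 to 7.94 in normal liver, so single tumors overlapped with it.

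Serpinb9e, a serine protease inhibitor, ranged from 6.00 to 11.93 (median 8.998) in the 10 highest tumors, from 7.49 to 11.03 (median 9.66) in the 10 lowest and from 5.27 to 6.79 (median 5.85) in normal liver. It lay above every normal liver in 9 of 10 high and 10 of 10 low tumors, tumor 24 being the exception. Its difference from normal liver was 2.83 ± 0.35 (SE, adjusted p = 1.27e-06) in the high group and 3.73 in the low group. Glod5 was higher by 2.85 ± 0.41 (SE, adjusted p = 7.27e-06), with medians of 8.79 (4.73 to 10.22) and 5.01 in normal liver. Gucy2c, the intestinal receptor of guanylin, had medians of 10.38 (7.05 to 11.06) in the high group, 10.34 (6.08 to 11.45) in the low group and 6.95 in normal liver. Cyp11a1, which starts steroid synthesis, had medians of 9.10 (6.49 to 12.84), 10.58 (7.81 to 12.17) and 6.53, and Slpi, a secreted protease inhibitor, 11.21 (7.54 to 11.82), 11.85 (10.76 to 12.14) and 7.78. Rgs2, a brake on G protein signals, was 4.47-fold higher than normal liver in the high group. These genes were named earlier on the same arrays as tumor genes, so their direction is not independent evidence. Between the tumor groups none of Serpinb9e, Glod5, Gucy2c, Cyp11a1, Slpi and Rgs2 passed, with intervals from -2.18 to 0.84 log2 units. All 10 genes of that earlier list nevertheless had lower means in the high than in the low group. Their median difference was -0.84, and 1 of them, Muc13, was called lower.

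Htra1, a secreted protease, ranged from 7.55 to 11.40 (median 9.86) in the high group, from 7.41 to 11.11 (median 9.46) in the low group and from 6.95 to 9.18 (median 7.30) in normal liver. Mmd2 had medians of 11.12 (7.52 to 11.96), 10.29 (7.56 to 11.29) and 8.07. For each, 7 of the 10 high tumors lay above every normal liver, and they were higher than normal by 2.22 ± 0.32 (SE) and 2.24 ± 0.32 (SE), both with an adjusted p of 7.27e-06. Without the doubted arrays both were also higher in the high than in the low group, by 1.19 (adjusted p = 0.0455) and 1.11 (adjusted p = 0.00472), against 0.31 and 0.41 with all arrays. Il33, an alarm cytokine, was 3.22-fold above normal liver in the high group and 3.17-fold in the low group. Aldh1b1, a mitochondrial aldehyde dehydrogenase, was 3.90-fold and 3.22-fold above, Oxct1, which uses ketone bodies, 2.77-fold and 2.38-fold, and Gprc5b, an orphan receptor, 3.53-fold and 4.13-fold. These 4 genes were chosen among those whose 95% interval for the difference between the tumor groups lay within 1 log2 unit of 0, so that closeness is no finding. Il33 and Oxct1 were called higher in the high group without the doubted arrays, by 0.77 (adjusted p = 0.0445) and 0.79 (adjusted p = 0.0343).

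Rian, a long non-coding RNA of the Dlk1-Dio3 imprinted region, and AF357425, a small RNA transcript, were high in some tumors of each group and at normal level in others. Rian stood at 12.16, 12.05, 11.72, 11.41, 11.21 and 9.88 in high tumors 8, 7, 14, 19, 27 and 21, and at 7.30, 6.81, 6.58 and 6.53 in high tumors 1, 20, 25 and 24. In the low group it stood at 9.10 to 12.20 in tumors 29, 4, 13, 28, 16 and 11 and at 6.18 to 7.11 in tumors 2, 3, 9 and 23. So 6 of 10 tumors in each group exceeded the normal maximum of 8.83. The difference from normal liver was 2.58 ± 0.60 (SE, adjusted p = 0.00463) in the high group and 1.92 in the low group, and the difference between the groups, 0.67, had a 95% interval of -0.82 to 2.15. AF357425 differed from normal liver by 2.58 ± 0.64 (SE, adjusted p = 0.0101) in the high group, which was 2.19 (adjusted p = 0.0567) without tumor 8.

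Of 25 genes of fetal liver and liver cancer, 7 were higher than normal in the 10 highest tumors and 12 in the 10 lowest. Afp was higher by 1.06 ± 0.36 (SE) and did not pass (adjusted p = 0.0759). Without the arrays nearer to the other tissue, a choice that widens differences from normal liver, it was higher by 1.68 (adjusted p = 0.000909). Cd24a was 2.79-fold higher (adjusted p = 0.00183). Of 17 interferon response genes 7 were higher, and 4 in the low group. Of 10 markers of other vessels 4 were higher in each tumor group, with Emcn, of capillary endothelium, at 1.28 ± 0.28 (SE, adjusted p = 0.00283). Of 15 markers of the Kupffer list 0 were higher and 1 lower, and of 14 sinusoidal markers 1 was higher and 0 lower.

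Nr1i3 fell by 1.52 ± 0.33 (SE) on the log2 scale against normal liver (adjusted p = 0.00249), and Wfdc21, a secreted protein of the WAP family, by 1.04 ± 0.25 (SE, adjusted p = 0.00734). In the low group these differences were -3.44 and -3.01. Nr1i3 was named earlier on the same arrays as a gene lower in tumors, so its direction is not independent evidence. Wfdc21 ranged from 8.58 to 11.51 (median 10.25) in the high group, from 7.51 to 8.87 (median 8.09) in the low group and had a median of 11.41 in normal liver. Inhba, which encodes a subunit of activin, fell by 0.92 ± 0.24 (SE, adjusted p = 0.014). Epas1, the hypoxia-inducible factor 2α, chosen by the same rule of a narrow interval between the tumor groups, had medians of 10.41 (9.70 to 10.84) in the high group, 10.32 (9.58 to 10.90) in the low group and 10.91 (10.40 to 11.60) in normal liver. It was lower than normal by -0.56 ± 0.12 (SE, adjusted p = 0.00224) and -0.67, and the difference between the groups was 0.11 with an interval of -0.19 to 0.41. Peg3, an imprinted gene, was lower by -1.03 (adjusted p = 0.024) and -0.94, the first call being lost without any of tumors 8, 14 or 19. Foxq1 was lower by -0.93 (adjusted p = 0.0215) in the high group, lost without any of tumors 7, 8 or 14, and by -1.58 in the low group.

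Without the 6 arrays nearer to the other tissue, where 11.1% of all genes were lower than normal, more of the hepatocyte program was lower in the high group. Leaving out these arrays widens the gap to normal liver by the choice itself. The counts, differences and p-values below describe that choice and are no separate result. Of 23 pericentral genes, 5 were lower than normal in the 10 highest tumors, and 15 in the 7 high tumors left after tumors 1, 20 and 24 were taken out. For the 42 P450 genes the counts were 1 and 11, for 13 uptake transporters 0 and 5 and for 17 complement genes 0 and 5. In those 7 tumors Rgn, a calcium-binding protein of hepatocytes, was lower than normal by -1.98 (adjusted p = 0.000124), Cyp2c50 by -1.54 (adjusted p = 0.00136), Pon1 by -1.23 (adjusted p = 0.00139) and Cyp1a2 by -1.02 (adjusted p = 0.00622). With all 10 tumors these differences were -0.98, -0.77, -0.68 and -0.39 and did not pass. Rgn, Cyp2c50 and Pon1 were named earlier on the same arrays as genes lower in tumors, so their direction is not independent evidence. Of 18 periportal genes 3 were higher than normal in the 10 highest tumors and 6 in those 7, and of 21 genes of urea cycle and amino acid breakdown 0 and 7. With tumor 9 left out as well these counts were 12 and 15, beside 15.9% of all genes, and in the low group 9 and 10.

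Counting gene by gene showed which single tumors carried both traits. For 10 genes that rise and 9 that fall in the tumors as a whole, each tumor was set against the range of 28 normal livers, normal liver 27 left out. Both lists were chosen on these arrays, so the counts describe single tumors only. Tumors 25, 27 and 19 had 9, 9 and 10 of the 10 rising genes above every normal liver and 0 of the 9 falling genes below. Tumors 14, 21, 7 and 8 had 8 or 9 rising genes above and 3 to 7 falling genes below. Tumors 24, 1 and 20, those nearer to normal liver, had 0, 2 and 1 rising genes above and 0, 0 and 3 falling genes below. In the 10 lowest, 9 tumors had 9 or 10 rising genes above and 6 to 9 falling genes below, and tumor 9 had 3 and 9. The counts of rising genes depended on normal liver 27. Against all 29 normal livers tumors 25, 27 and 19 had 5, 3 and 8 rising genes above, tumors 14, 21, 7 and 8 had 4, 3, 4 and 6, and tumors 24, 1 and 20 had 0, 1 and 1. The 9 low tumors then had 3 to 9, and tumor 9 had 1.

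**Figure D5:**
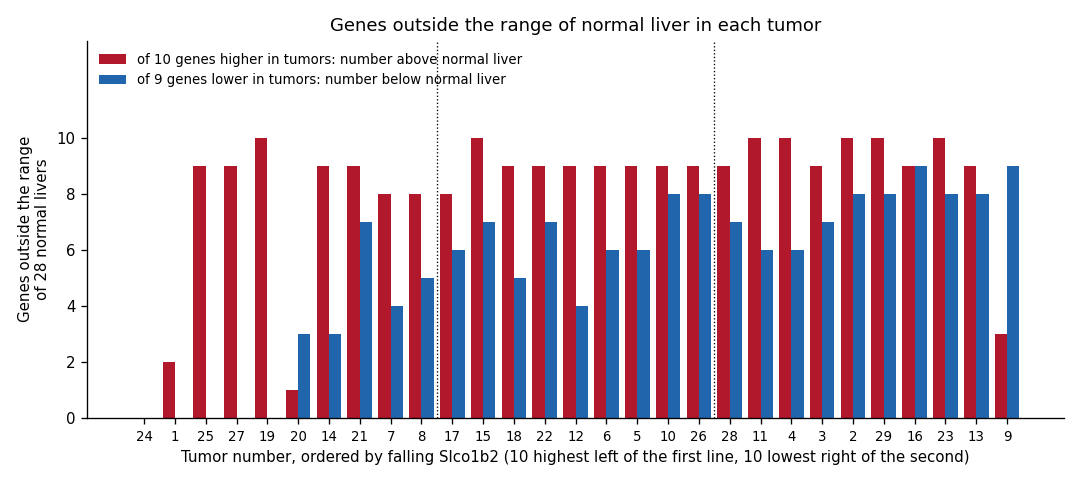
For each of 29 tumors in falling order of Slco1b2, the number of 10 rising genes above and of 9 falling genes below the range of 28 normal livers, with dotted lines at the edges of the high and low groups. Tumors 25, 27 and 19 have 9 or 10 rising and 0 falling genes outside the range, whereas tumors 24, 1 and 20 have 0 to 2 rising genes outside it. With normal liver 27 included the first 3 have 3 to 8 rising genes outside the range.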

How the data were processed

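Total RNA of 58 mouse livers and tumors was measured on Affymetrix Mouse Gene 2.0 ST arrays. The authors deposited log2 values between 2.91 and 14.08. The submitters' processing notes name Affymetrix Expression Console and no version. The algorithm and genome build were not given in the sources used here. Precision is limited by the number of arrays. Of 41345 transcript clusters, 23521 carry 1 gene symbol in the platform annotation, 1814 several and 16010 none. The cluster of highest mean stood for each of 22180 genes. Array medians ran from 6.72 to 7.15, and values were used as deposited.

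All 58 arrays were fitted in 4 groups with limma 3.58.1 (R 4.3.3), with trend and with the animal as a random block (correlation 0.132), since titles gave tumor and normal liver of 18 mice the same animal number. Benjamini-Hochberg adjustment ran over 22179 genes. Differences and SEs come from this fit, levels from the arrays. Animals were read from the titles, so p-values measure the spread between these mice. On simulated data the fit recovered 94% of 100 genes changed by 1 log2 unit for high against low tumors. The simulated spread was that of normal livers without normal liver 27, on the tumor arrays too. Recovery at the spread of the tumors was not tested.

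Members and lists were chosen with earlier results of these data known. Named genes were the leading genes of each list. The 12 with the largest difference each way, with at least 9 of 10 tumors beyond the other group's median, were also named. From genes with a narrow interval between the tumor groups, the 8 each way of lowest adjusted p against normal liver were added. Their p-values for the high group against normal liver were therefore part of the choice. To these came Slco1a1, Slco1a4, Hnf4a, Cebpa, Foxa2, Alb, Afp, Mki67, Rian, Cyp11a1, both lists named earlier on these arrays and, after the values were seen, the whole Slco family. Alternatives were other scalings, filters, group sizes, blocks, the sex label and left-out arrays. A promoter comparison is not reported here.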

Additional observations from a re-analysis of the deposited data

Results flagged for a closer look

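Among the 10 tumors of a group, 13 of 136 gene and group pairs had 1 tumor far from the rest, where chance gives about 1 in 20. Of these, 10 were tumor 9 of the 10 lowest. Its log2 values, each followed by the nearest other low tumor, were 10.467 for Alb (13.295), 7.53 for Hnf4a (9.826) and 8.681 for Cebpa (10.217), which are hepatocyte identity genes. They were 5.842 for Baat (7.734), 5.581 for F13b (7.282), 5.767 for Gulo (7.518) and 9.46 for Sc5d (10.446), which are hepatocyte products. They were 4.771 for Glod5 (7.541), 6.08 for Gucy2c (9.589) and 10.285 for Btg2 (11.018), which were above normal liver in the other low tumors. In the same tumor the mean over 8 markers of B and plasma cells was 11.70 and that over 14 markers of T and natural killer cells 9.34, against at most 7.41 and 7.02 in the other 9, and their part was not tested. In the 10 highest, tumor 20 had Cyp2f2 at 9.637 (next 11.441) and tumor 21 had Gulo at 8.517 (next 10.1). Il33 was high in tumor 23 of the 10 lowest, at 10.713 (next 9.281).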

How the results depend on the processing

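Counts of 2-fold genes higher in the 10 highest than in the 10 lowest tumors (254) became 397 with 7 tumors a side and 145 with 14. The count of lower genes (18) became 67 with array weights, 2 with 14 a side, 11 without the arrays nearer to the other tissue and 35 without those against their sex label. Above normal liver (135), the high group had 50 genes with the 7 highest, 208 with the 14 highest, 364 without the arrays nearer to the other tissue and 375 without tumor 9 as well. Below normal liver (11), it had 7 after centring, 17 after quantile normalization, 28 with array weights, 0 and 58 with 7 and 14 tumors, 90 and 93 without those arrays, 18 without normal liver 27 and 5 without the arrays against their sex label. In the low group 293 higher and 448 lower genes became 461 and 402 with array weights, and 458 and 411 without the doubted arrays. With the replicate block on same-animal pairs alone, the high group had 0 higher and 0 lower genes over 6 pairs, and the low group 158 and 246 over 7. Leaving out 1 tumor at a time gave 197 to 309 higher and 10 to 42 lower genes between the tumor groups, 88 to 191 and 2 to 17 for the high group against normal liver, and 273 to 368 and 374 to 491 for the low group. The 131 list members called became 87 with 14 a side, and the 524 genes falling with Slco1b2 in normal liver became 262 after centring and 273 without the 2 livers of lowest Slco1b2. The 398 rising genes became 448 without those 2 livers. No named call between the tumor groups, or of the high group against normal liver, changed direction. In the low group against normal liver, 2-fold lower genes outnumbered 2-fold higher ones, but not with array weights or without the doubted arrays. At any size of difference, higher genes outnumbered lower ones there, with 2852 against 2136 on all arrays. In normal liver, genes falling with Slco1b2 outnumbered rising ones, but not without the 2 livers of lowest Slco1b2. Medians of gene lists also changed sign. Without tumor 9 the urea cycle median between the tumor groups went from 0.53 to -0.05, that of Nrf2 targets from 0.06 to -0.20, and in the low group against normal liver the urea cycle went from -0.21 to 0.37 and gluconeogenesis from -0.33 to 0.24. Without the arrays nearer to the other tissue the neutrophil median went from 0.24 to -0.17. Other lists with medians near 0 also changed sign in some settings. The causes were not tested. Of 98 named genes called between the tumor groups, 71 to 98 kept the call in the settings that tested all of them. Of 46 named genes called in the high group against normal liver, 23 lost the call with 7 tumors a side and all 46 with the replicate block on same-animal pairs alone.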
